A study of Mus musculus with 2 samples.

Results

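The genes described here are 10 imprinted protein-coding genes of the postnatal mouse brain, namely Nnat, Ndn, Gnas, Cdkn1c, Impact, Peg3, Peg10, Grb10, Dlk1 and Plagl1, taken by name from 45578 genes. Ribosome footprints were measured with RiboLace, in which beads carrying a puromycin analogue pull down translating ribosomes, and the RNA protected by those ribosomes is sequenced. The material was brain of control mice at postnatal day 5 (P5), of genotype Smn+/-; SMN2tg/0 on a congenic FVB background, so both libraries came from animals with a single functional mouse Smn copy and the human SMN2 transgene. There were 2 libraries, named biological replicates 1 and 2, of 1 group and no second condition, and the labels do not say whether each came from a different animal. For each gene, the transcript with most counts over both libraries stood for it, and symbols were read from transcript names.

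Imprinted genes are expressed mainly from a single parental copy, because DNA methylation set in the egg or the sperm differs between the copies. Many of them lie in clusters, act on growth, and stay active in the brain, where paternally and maternally expressed genes have been tied to feeding, thermogenesis and maternal behaviour. Nnat, Ndn, Peg3, Peg10, Impact, Dlk1 and Plagl1 are known as paternally expressed and Cdkn1c as maternally expressed. Grb10 is known to use the paternal copy in neurons and the maternal copy in most other tissues, and Gnas makes several proteins that differ in their parental copy. The footprints were not separated by parental copy, so the values below are sums over both.

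Replicate 1 held 343552 gene counts and replicate 2 held 120282. Levels are given as CPM, the counts scaled to a common normalised library size, so that a single count equalled 2.71 CPM in the deeper library and 8.93 CPM in the shallower one. The labelled tissue was checked against markers. All 7 neuronal markers passed the filter on low counts, a mean of 10 or more over both libraries, and held 0.757% and 0.772% of counts. The 7 astrocyte and radial glia markers and the 6 oligodendrocyte lineage markers also all passed, as did 5 of 6 meningeal, 4 of 5 erythroid, 2 of 5 endothelial and pericyte, 1 of 5 microglial, 1 of 5 choroid plexus and 1 of 6 hypothalamic markers. The 5 pituitary markers held 5 and 1 counts in all, the liver genes Alb and Apoa1 and the muscle genes Ckm and Tnnt3 had 0 in both libraries, and 1 of 4 listed genes passed for liver (Ttr, shared with the choroid plexus) and for muscle (Acta1). Between the libraries, the exact binomial test described below called Tubb3 higher (log2 ratio 0.33, SE 0.084), Col1a1 higher (0.86, SE 0.26) and Ptgds lower (-0.78, SE 0.25) in replicate 2. Tubb3 was 1 of 7 neuronal markers tested, and Col1a1 and Ptgds were among 5 meningeal ones, while 0.956% of protein-coding genes were called. The edgeR exact test with a preset biological coefficient of variation of 0.2 called 0 in both lists. A difference in cell make-up between the libraries was not tested.

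Promoter sequence is a feature that the choice of these genes did not use, and imprinting control regions are rich in CpG, the dinucleotide that carries the methylation. RefSeq windows of 300 bases around transcription starts (GRCm38.p6) were at hand for 7 of the 10 genes, in 11 windows, of which 2 at Gnas overlap. The 11 windows held from 9 to 45 CpG, all above the median of 7 over 32851 windows of the same length. The median was 14 over the windows of protein-coding genes, and 7 of the 11 lay above it and 4 below. The window with 45 CpG belonged to the upstream start of Grb10, and 1.93% of all windows held as many. The windows of Dlk1 and of the downstream start of Grb10 held 9 each, which 45.8% of all windows reached. A set of 4 windows is printed here in lower case with each CpG in capitals, because they belong to the genes on which the results turn: Nnat, the most upstream and the most downstream start of Gnas, and Peg3, whose window also spans the start of its head-to-head neighbour Usp29.
Nnat, chr2:157559828-157560127, plus strand: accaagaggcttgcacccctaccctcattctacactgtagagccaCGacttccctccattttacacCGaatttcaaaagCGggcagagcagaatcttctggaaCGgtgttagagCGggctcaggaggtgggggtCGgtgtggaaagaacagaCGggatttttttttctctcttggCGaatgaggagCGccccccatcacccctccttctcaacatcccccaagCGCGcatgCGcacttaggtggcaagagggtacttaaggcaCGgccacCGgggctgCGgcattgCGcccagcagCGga
Gnas upstream start, chr2:174284070-174284369, plus strand: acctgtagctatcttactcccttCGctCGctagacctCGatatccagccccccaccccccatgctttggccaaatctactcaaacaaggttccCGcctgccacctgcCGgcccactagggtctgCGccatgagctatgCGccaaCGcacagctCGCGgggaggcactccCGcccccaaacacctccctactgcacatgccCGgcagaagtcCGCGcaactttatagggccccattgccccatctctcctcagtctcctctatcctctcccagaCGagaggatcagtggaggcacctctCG
Gnas downstream start, chr2:174329756-174330055, plus strand: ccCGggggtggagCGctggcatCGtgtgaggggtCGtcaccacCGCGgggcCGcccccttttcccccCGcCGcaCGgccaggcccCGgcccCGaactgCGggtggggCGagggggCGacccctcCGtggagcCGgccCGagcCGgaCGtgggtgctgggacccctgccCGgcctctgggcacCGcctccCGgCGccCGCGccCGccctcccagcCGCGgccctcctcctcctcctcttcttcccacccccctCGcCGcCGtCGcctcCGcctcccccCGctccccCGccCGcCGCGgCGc
Peg3, chr7:6730370-6730669, minus strand: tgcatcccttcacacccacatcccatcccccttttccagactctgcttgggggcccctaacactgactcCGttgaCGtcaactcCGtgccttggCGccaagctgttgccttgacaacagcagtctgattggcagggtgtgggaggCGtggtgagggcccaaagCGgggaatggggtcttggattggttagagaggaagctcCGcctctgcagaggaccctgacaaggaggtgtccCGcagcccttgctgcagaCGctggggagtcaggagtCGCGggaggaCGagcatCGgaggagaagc
The upstream Gnas start, known to serve the neuroendocrine secretory protein NESP55, held 16 CpG and the downstream start, known to serve the stimulatory G protein alpha subunit, held 40, a number reached by 3.91% of all windows. The Nnat window held 17 and the Peg3 window 13. The hexamer TGCCGC, in which ZFP57 binds methylated DNA, was searched on both strands and found in the windows of Nnat, Plagl1 and the upstream start of Grb10, that is in 3 of the 11 windows (27.3%), against 11.6% of all windows and 14.5% of those of protein-coding genes. These matches describe the letters only.

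Footprint levels spanned a wide range, with Nnat, Ndn and Gnas above the others. Together these 3 genes held 746 of the 966 counts of the 10 genes in replicate 1 and 214 of 277 in replicate 2, or 77.2% and 77.3%. The count filter was passed by 8 of the 10 genes; Dlk1 (13 counts in sum) and Plagl1 (12) fell short and were not tested. Because counts rise with length, the order of genes is given as CPM per kb of coding sequence, and raw counts are given to show the depth behind it. These are levels of ribosome footprints: mRNA amount was not measured here, and fewer cells of a type and fewer footprints per cell cannot be told apart in whole tissue.

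**Figure D1:**
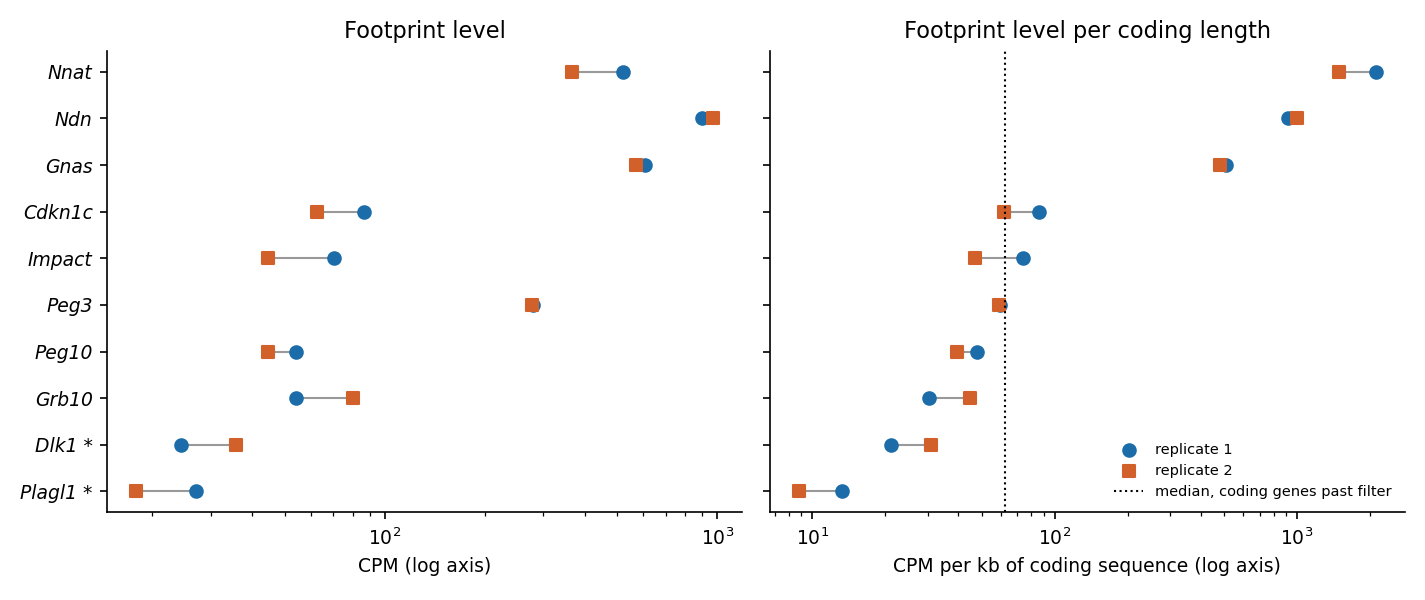
Footprint level of each of the 10 genes in replicate 1 (circles) and replicate 2 (squares), as CPM on the left and as CPM per kb of coding sequence on the right, both on log axes; asterisks mark Dlk1 and Plagl1, under a mean of 10 counts. Nnat, Ndn and Gnas lie between 482 and 2115 CPM per kb in both libraries, and the other genes at 86.0 or below.

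Nnat (ENSMUSG00000067786, GRCm38 chromosome 2, 157560078 to 157562525) encodes neuronatin, a small membrane proteolipid of the endoplasmic reticulum of 81 residues in its long form. It lies within an intron of Blcap on the opposite strand, so without knowledge of strand use its counts could hold Blcap reads. Its counts were 192 in the first library and 41 in the second, or 520 and 366 CPM, and 1802 CPM per kb of coding sequence ± 443 (SD, n = 2). That placed it at rank 34 of 4294 protein-coding genes past the count filter, between Cst3 (1827 ± 16.4) and Gpm6a (1775 ± 235, both CPM per kb, SD, n = 2). Nnat has a coding sequence of only 246 nucleotides in a transcript of 1213, and its rank depended on the length used. Per kb of whole transcript it stood at 365 CPM ± 89.9 (SD, n = 2), rank 145, and below Ndn. Taking the isoform whose coding sequence was longest, 390 nucleotides, it stood at 823 CPM per kb ± 1.86 (SD, n = 2), rank 108, again below Ndn at 980 ± 58.4 under the same rule.

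Ndn (ENSMUSG00000033585, chromosome 7, 62348277 to 62349928) encodes necdin, a MAGE family protein of postmitotic neurons that is deleted in Prader-Willi syndrome. It had 331 and 109 counts, or 897 and 973 CPM, and 956 CPM per kb ± 55.2 (SD, n = 2). It held rank 87 of 4294 in each library, between Cd24a (979 ± 91.0) and Gng2 (935 ± 328, both CPM per kb, SD, n = 2). Gnas (ENSMUSG00000027523, chromosome 2, 174284320 to 174346744) encodes the stimulatory G protein alpha subunit, which links hormone receptors to adenylyl cyclase. It had 223 and 64 counts, or 604 and 572 CPM, and 496 CPM per kb ± 19.6 (SD, n = 2), at rank 257 between Nme2 (496 ± 41.4) and Mdh1 (493 ± 43.2, both CPM per kb, SD, n = 2). The values of Nnat, Ndn and Gnas did not overlap between neighbours in this order, and Gnas stood 6.70-fold above the next gene, Cdkn1c. With the longest coding isoform standing for each gene, Gnas fell to 90.6 CPM per kb ± 10.1 (SD, n = 2), 1.47-fold above the next gene, Impact (61.6 ± 19.4).

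The next 5 genes lay between the quartiles (30.9 and 143 CPM per kb) of the 4294 coding genes past the count filter. Of these 5, Cdkn1c stood above the median of 62.3 and the others below. The filter leaves out most of the 21874 coding genes, of which 7394 had 0 counts in both libraries, so these places hold among the more highly counted genes only. Cdkn1c (ENSMUSG00000037664, chromosome 7, 143458339 to 143461059), the cyclin-dependent kinase inhibitor p57, had 32 and 7 counts and 74.0 CPM per kb ± 17.0 (SD, n = 2). Impact (ENSMUSG00000024423), which restrains the amino acid sensing kinase Gcn2, had 26 and 5 counts and 60.1 ± 19.1. Peg3 (ENSMUSG00000002265, chromosome 7, 6703892 to 6730462), a large zinc finger protein, had 103 and 31 counts and 58.9 ± 0.346. The replicates of Peg3 were nearly equal, at 279 and 277 CPM, and its place near the median comes with a coding sequence of 4716 nucleotides. Peg10 (ENSMUSG00000092035, chromosome 6, 4747306 to 4760517), derived from a retrotransposon and needed for the placenta, had 20 and 5 counts and 43.7 ± 5.97. Grb10 (ENSMUSG00000020176, chromosome 11, 11930499 to 12037428), an adaptor that dampens insulin and IGF1 receptor signalling, had 20 and 9 counts and 37.6 ± 10.3 (each CPM per kb, SD, n = 2). With the longest coding isoform standing for each gene, Peg10 (13 and 4 counts) fell under the count filter and stood below Dlk1 in CPM per kb.

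With the transcript of most counts standing for each gene, the lowest levels were those of the genes under the count minimum. Dlk1 (ENSMUSG00000040856, chromosome 12, 109452485 to 109463336), a membrane protein with EGF repeats related to the Notch ligands, had 9 and 4 counts and 26.0 CPM per kb ± 6.92 (SD, n = 2). Plagl1 (ENSMUSG00000019817, chromosome 10, 13090832 to 13131694), a zinc finger transcription factor, had 10 and 2 counts and 11.0 ± 3.21 (CPM per kb, SD, n = 2). In the order of levels, Cdkn1c and Impact, Impact and Peg3, Peg10 and Grb10, and Grb10 and Dlk1 overlapped between the libraries and so did not differ beyond their spread. Peg3 and Peg10, and Dlk1 and Plagl1, did not overlap, at mean ratios of 1.35 and 2.35, though with 12 to 25 counts in sum for Peg10, Dlk1 and Plagl1.

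**Figure D2:**
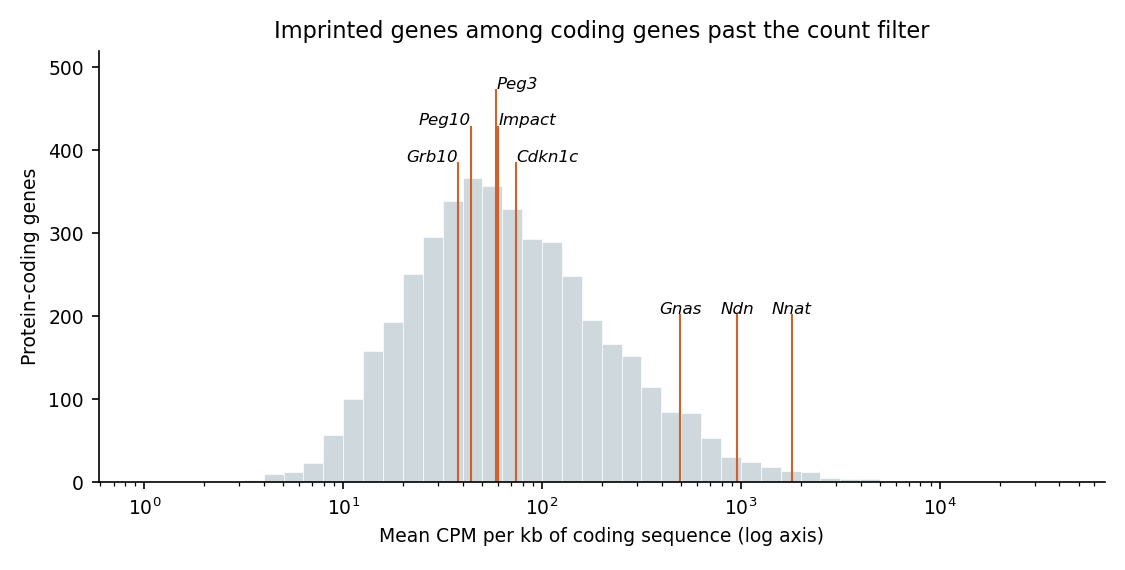
Histogram of the mean CPM per kb of coding sequence (log axis) over the 4294 protein-coding genes past the count filter, with vertical lines at the 8 imprinted genes that passed. Nnat, Ndn and Gnas lie in the upper tail. Cdkn1c lies above the median of 62.3 and Impact, Peg3, Peg10 and Grb10 below it, all between the quartiles.

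None of the 8 tested genes was called different between the libraries. A 2-sided exact binomial test on the counts, with Benjamini-Hochberg adjustment over all 5436 genes past the filter, compares these libraries and not conditions; it called 4.14% of all genes tested and 0.956% of the 4392 protein-coding ones. Of the 8 genes 0 were called, 1 (Nnat) had an unadjusted p under 0.05, and the edgeR exact test with a preset biological coefficient of variation of 0.2 called 0 and gave 0 at an unadjusted p under 0.05. Nnat had the smallest p, with a ratio of replicate 2 to replicate 1 of 0.704 (95% exact interval 0.489 to 0.990), an unadjusted exact binomial p of 0.0435 and an adjusted p of 0.475. With isoforms summed, Nnat was called lower in replicate 2 (log2 ratio -0.33, adjusted exact binomial p = 0.00428), but its isoforms then add up to 1390 and 320 counts against 192 and 41 for the highest one, and a fragment counted for several isoforms makes that p too small. The ratio was 1.09 for Ndn (95% exact interval 0.866 to 1.35), 0.946 for Gnas (0.705 to 1.25) and 0.992 for Peg3 (0.641 to 1.49). The intervals of the other tested genes were wide, from 0.190 to 1.68 for Impact and from 0.595 to 3.41 for Grb10, so changes of that size were not detectable at this depth. The median log2 ratio was -0.18 over the 8 genes, 2 above 0 and 6 below, and -0.016 over the coding genes tested.

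**Figure D3:**
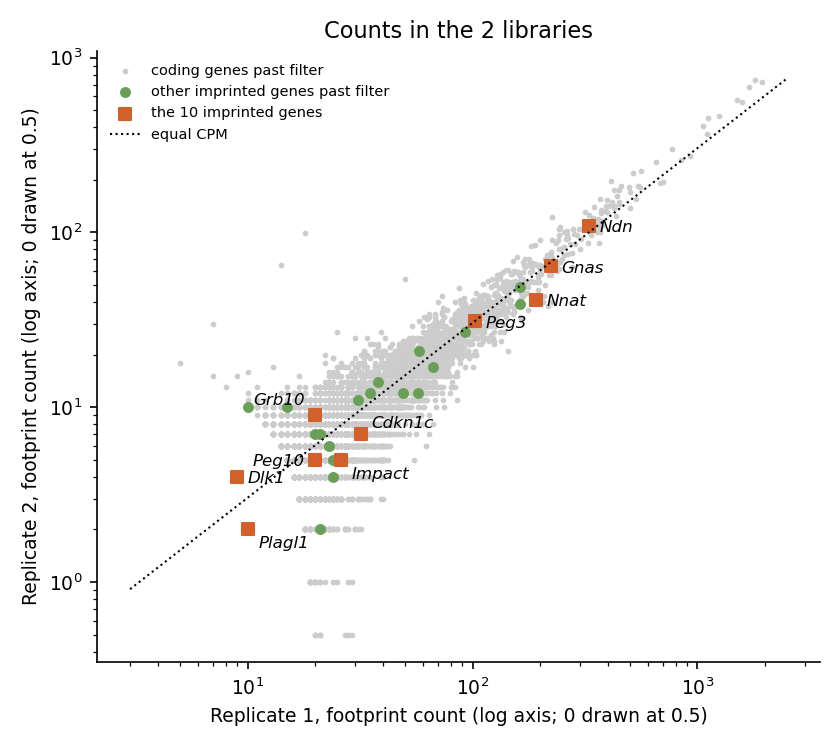
Footprint count in replicate 1 (x axis) and replicate 2 (y axis), both on log axes, for coding genes past the filter (grey), other imprinted genes past it (circles) and the 10 imprinted genes (squares); the dotted line marks equal CPM. Ndn, Gnas and Peg3 lie on the line and Nnat lies below it, with 192 and 41 counts.

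As a share of all gene counts, the 10 genes held 0.281% in replicate 1, with a 95% Wilson interval of 0.264 to 0.299. The share was 0.230% in replicate 2 (0.205 to 0.259), and these intervals did not overlap. The share of counts outside protein-coding genes rose between the libraries, from 18.6% to 26.9%, and its part in the lower share of the 10 genes was not tested. Among the counts of protein-coding genes alone, the 10 genes held 0.346% (0.324 to 0.368) and 0.315% (0.280 to 0.354), with overlapping intervals. The intervals cover counting error only.

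The isoforms of Gnas, Nnat and Peg10 were listed with different footprint counts. A fragment appears to have been counted for every transcript it matched, since 24 pairs of isoforms with equal region lengths differed in replicate 1 by a mean chi-square of 0.166 per pair, less than a random division of fragments between them would give. The isoforms of Cdkn1c and Peg10 of near-equal length differed by more, so the rule of counting is uncertain. The counts of isoforms are set side by side here with no test between isoforms. Among the 24 Gnas isoforms, 16 are coding. The 4 with coding sequences of 1140 to 1185 nucleotides, which include the long and short forms of the alpha subunit (394 and 380 residues), had 171 to 223 counts in replicate 1 and 40 to 64 in replicate 2. The 3 isoforms of 3360 or 3402 nucleotides, the extra-large form XLas of up to 1133 residues, share the downstream exons, add a long first exon and had 113 to 124 and 31 to 43 counts. All of the XLas counts were below those of the alpha subunit isoforms in replicate 1, while in replicate 2 they overlapped. Because the downstream exons are shared, the XLas counts can hold footprints of the alpha subunit. Gnas-006, with a 5' untranslated region of the same 3 nucleotides and 2631 coding nucleotides, had 2 and 0 counts. How many of the XLas counts lay in the long first exon was not tested.

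The 3 Gnas isoforms of 762 coding nucleotides, the NESP55 frame of 253 residues, agreed in the length of the 5' untranslated region and coding sequence but not in their counts. Gnas-007 had 128 and 27 counts, Gnas-202 had 18 and 9, and Gnas-008 had 4 and 2. NESP55 is a chromogranin-like protein of secretory granules, made from the maternal copy, and the 3' untranslated regions of its transcripts are known to hold exons of the alpha subunit. If every matching transcript was credited with a fragment and the equal lengths mean equal sequence, at most 4 and 2 footprints lay in the NESP55 frame. The isoforms of 1185 coding nucleotides, Gnas-002 and a shorter one with 183 and 43 counts, differed by 2187 nucleotides of length, nearly all in the 5' untranslated region. Gnas-002 held 40 and 21 more counts, or 18.3 and 9.60 counts per kb of the extra length. Gnas-002 stood for the gene above, so the level of Gnas and its ratio between the libraries include these extra counts. The shorter isoform stood at 496 and 384 CPM, against 604 and 572 CPM for Gnas-002. Taking Gnas-004, whose coding sequence is the longest, the gene held rank 1609.

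**Figure D4:**
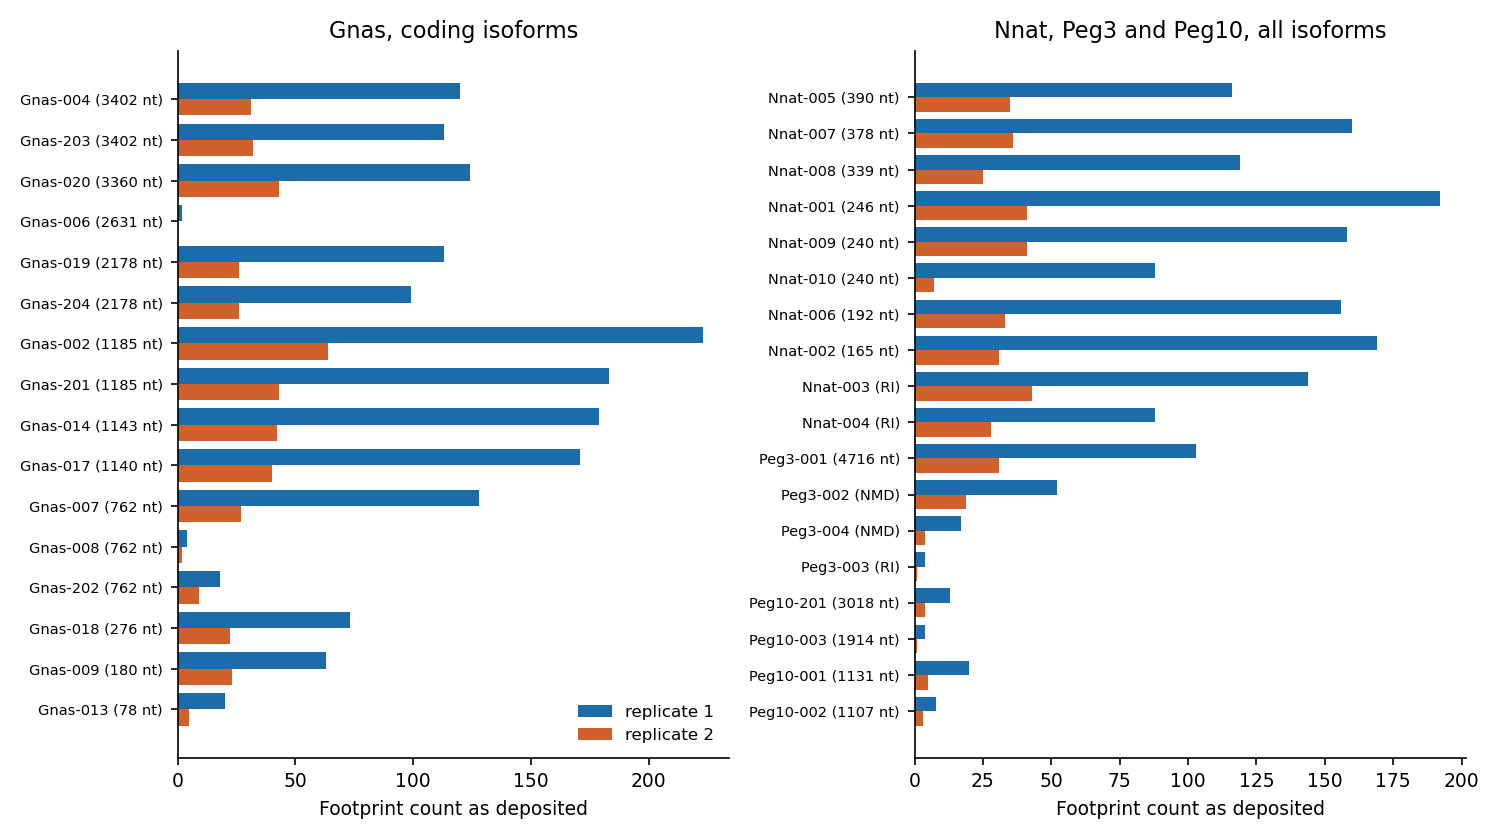
Footprint counts as deposited in replicate 1 (blue) and replicate 2 (orange) for the 16 coding isoforms of Gnas (left) and all isoforms of Nnat, Peg3 and Peg10 (right), with the coding length in nucleotides or the class (NMD, nonsense-mediated decay; RI, retained intron). Gnas-002 has the highest counts, 223 and 64, while Gnas-006 and Gnas-008 have 4 or fewer.

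The 10 Nnat isoforms had 88 to 192 counts in replicate 1 and 7 to 43 in replicate 2. The long form of 246 coding nucleotides had 192 and 41, and the short form of 165 nucleotides, which lacks the middle exon, had 169 and 31. Nnat-005, with 390 coding nucleotides and almost no 3' untranslated region, had 116 and 35 counts, or 314 and 313 CPM, so the lower value of Nnat in replicate 2 was not seen on that isoform (log2 ratio -0.0046, SE 0.28, in the fit on longest coding isoforms). Nnat-010, also of short transcript length, had 88 and 7.

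Peg10 is read in 2 overlapping frames, the second reached by a backward slip of the ribosome by 1 base. Peg10-001, annotated with the first frame (376 residues), had 20 and 5 counts, and the transcript annotated with the fused product (1005 residues) had 13 and 4. These transcripts differ by 5 nucleotides in length. Peg10-002, annotated with 1107 coding nucleotides against 1131 in Peg10-001 and no 3' untranslated region, had 8 and 3 counts. Peg10-003, which starts in a coding sequence of 1914 nucleotides, had 4 and 1. Footprints were listed on transcripts of both annotations. If a fragment is counted for every matching transcript, shared sequence alone can give this, so reading of the second frame was not tested. The counts are also too low for a ratio. The isoforms of Cdkn1c, of 1008 and 1047 coding nucleotides, had 32 and 33 counts in replicate 1 but 7 and 2 in replicate 2; on the longer one the log2 ratio was -2.26 (SE 1.00, adjusted exact binomial p = 0.234), against -0.47 (SE 0.59) on the other.

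The coding isoform of Peg3 had 103 and 31 counts, and its longest nonsense-mediated decay isoform 52 and 19. Of the 9 coding Dlk1 isoforms, the full-length form (385 residues) had 9 and 4 counts in its longest transcript, and a form shortened to 290 residues had 9 and 0. The 3 longest coding forms of Grb10 had 15 to 20 and 5 to 9 counts, and the 3 full-length forms of Plagl1 had 8 to 10 and 2 or 3. Ndn and Impact have a single isoform in the table.

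Within imprinted domains, the 10 genes were set beside the listed imprinted genes within 1 Mb. Peg3 and the deubiquitinase gene Usp29 start 97 bases apart on opposite strands, and stood at 58.9 and 14.2 CPM per kb; Usp29 had 21 and 2 counts. Zim1, the maternally expressed zinc finger gene on the other side of Peg3, had 4 and 2. Peg10 and Sgce, the epsilon-sarcoglycan gene, lie 102 bases apart and stood at 43.7 and 14.3 CPM per kb, with 7 and 2 counts for Sgce. On its longest coding isoform, Peg10 (13 and 4 counts) stood below that value of Sgce. Sgce was not set beside it under the same rule, so their order is given for the transcript of most counts only. Ppp1r9a, which encodes a neuronal actin-binding protein, had 10 and 10 counts on a transcript with no coding sequence, so it has no value per kb of coding sequence. Around Ndn, 956 CPM per kb compared with 35.7 for the ubiquitin ligase gene Mkrn3, 6.64 for Magel2 and 3.18 for Peg12. Magel2 (9 and 3 counts) and Peg12 (2 and 0) were under the count filter. Snurf and Snrpn, listed as paternally expressed and at 606 and 546 CPM per kb, were not among the listed genes within 1 Mb of Ndn. Near Dlk1, Rtl1 and the deiodinase gene Dio3 had 1 and 1 counts each. Around Cdkn1c, the tetraspanin gene Cd81 (618 CPM per kb) and the growth factor gene Igf2 (299) were higher than Cdkn1c, while Slc22a18, Kcnq1, Phlda2, Ascl2 and Ins2 had 0 counts in both libraries, which allows a share of up to 0.000873% in replicate 1 and 0.00249% in replicate 2. Igf2 in the perinatal brain is known from meninges and choroid plexus; markers of these lists held 471 and 145 counts and 410 and 161 counts, of which Ttr alone gave 395 and 153, and their part in the Igf2 level was not tested.

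**Figure D5:**
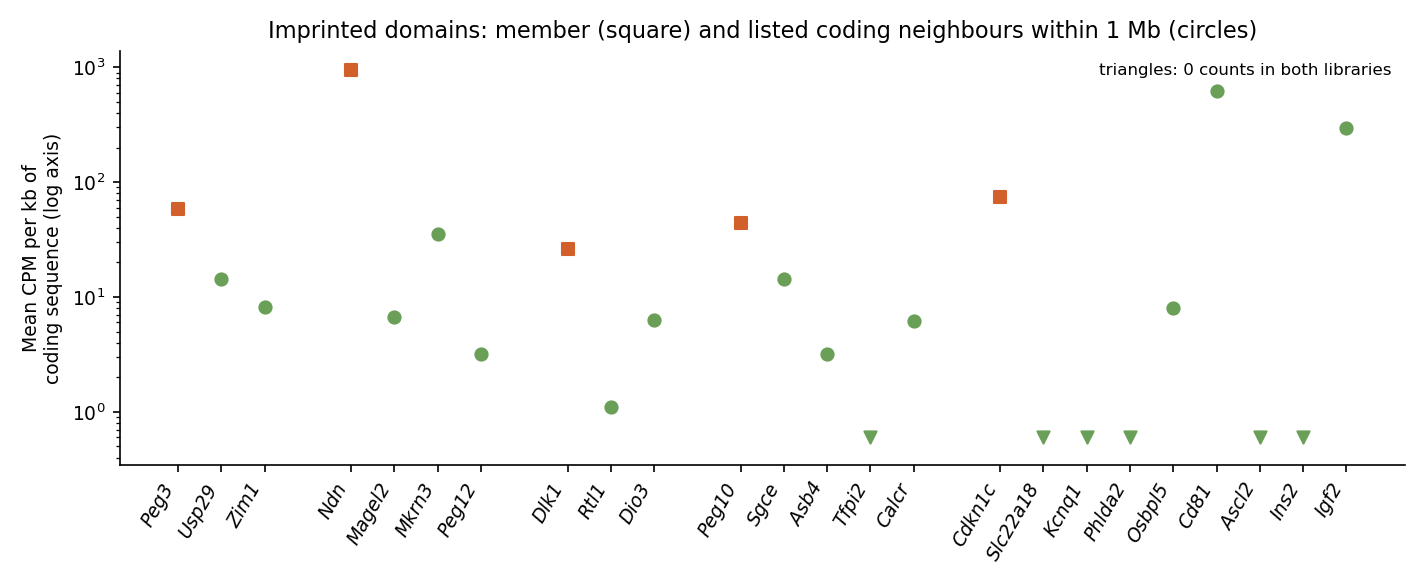
Mean CPM per kb of coding sequence (log axis) of 5 of the 10 genes (squares) and of the listed imprinted coding neighbours within 1 Mb (circles), in order of distance; triangles mark 0 counts in both libraries. Ppp1r9a, at a mean of 58.2 CPM against 49.4 CPM for Peg10, is not plotted because the transcript that stands for it has no coding sequence. Dlk1 and, of the circles, Zim1, Magel2, Peg12, Rtl1, Dio3, Sgce, Asb4, Calcr and Osbpl5 were under the count filter. With the transcript of most counts standing for each gene, Peg3, Ndn, Dlk1 and Peg10 lie above each of their plotted neighbours, and Cdkn1c lies below Cd81 and Igf2. On its longest coding isoform, which is not plotted, Peg10 is lower than the value plotted for Sgce.

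Of 41 other imprinted protein-coding genes, 40 were in the table and 18 passed the count filter, and 0 of the 18 were called, against 0.956% of the protein-coding genes tested; 1 had an unadjusted exact binomial p under 0.05 and the edgeR exact test gave 0. Their median log2 ratio was -0.039, with 8 above 0 and 10 below. Of the genes listed as paternally expressed 10 of 20 passed, led by Snurf (606 CPM per kb ± 155), Snrpn (546 ± 91.4), Nap1l5 (523 ± 16.4), Igf2 (299 ± 37.3) and Mest (119 ± 17.98, each CPM per kb, SD, n = 2). Snurf and Snrpn, the latter a spliceosomal protein gene, are encoded on one transcript and share fragments. Of the genes listed as maternally expressed 8 of 20 passed, led by Cd81 (618 ± 4.15), H13 (96.2 ± 13.2), Kcnk9 (47.9 ± 5.12), Ube3a (39.6 ± 3.41) and Copg2 (24.8 ± 13.2, CPM per kb, SD, n = 2). Ube3a, the ubiquitin ligase gene of Angelman syndrome, is silenced on the paternal copy in neurons. Nnat and Ndn thus stood above, and Gnas below, the highest of these other genes. The lists do not give the tissue in which each gene is imprinted, and imprinting in this tissue was not tested.

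Among 9 imprinted non-coding RNAs, Peg13 had 59 and 21 counts, Meg3 25 and 18, Rian 20 and 4 and Snhg14 17 and 17, and these 4 passed the filter. Snhg14, the host transcript of snoRNAs that runs antisense to Ube3a, was called higher in replicate 2 (log2 ratio 1.70, SE 0.49, adjusted exact binomial p = 0.0208). That call was lost with library totals (adjusted p = 0.0695), without the count filter (0.144) and with the preset coefficient of variation (0.361). Non-coding genes as a whole took more of replicate 2, as given above. Of the 217 genes called higher in replicate 2 among all 5436 tested, 36 were among the 4392 protein-coding ones. Most such calls thus fell on genes outside the protein-coding class, so 1 call among these 4 RNAs does not set Snhg14 apart. Antisense counts are uncertain because the use of strand in counting is not given in the sources used here. Airn and Nespas, the antisense RNAs of the Igf2r and Gnas domains, had 0 counts in both libraries.

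Genes that work with the 10 were described from fixed lists, and 0 of the 45 past the filter, summed over 10 lists, were called by the exact binomial test, against 0.956% of all coding genes tested, with 2 (Maged1 and Cdk4) at an unadjusted p under 0.05; the edgeR exact test called 0, with 1 at an unadjusted p under 0.05. In the stimulatory G protein pathway of Gnas, 12 of 16 genes passed, with the gamma subunit Gng2 at 935 CPM per kb ± 328, the beta subunit Gnb1 at 480 ± 36.8 and the protein kinase A regulator Prkar1a at 424 ± 26.2 (SD, n = 2); the adenylyl cyclases that passed, Adcy1, Adcy5 and Adcy2, lay at 49.4, 21.6 and 18.2. The olfactory-type alpha subunit Gnal stood at 81.1 ± 30.4, against 496 for Gnas. In the MAGE family and partners of necdin, 5 of 11 passed, led by Maged1 (304 ± 58.1) and Magee1 (178 ± 19.1, CPM per kb, SD, n = 2), both below Ndn in each library. In insulin and IGF signalling, 10 of 15 passed; the receptors Insr and Igf1r stood at 18.97 ± 0.770 and 17.6 ± 8.97 CPM per kb, the binding proteins Igfbp5 and Igfbp2 at 258 ± 7.24 and 226 ± 10.6, and the ubiquitin ligase Nedd4, a Grb10 partner, at 269 ± 12.6 (SD, n = 2). The Grb10 relatives Grb7 and Grb14 had 1 and 0, and 7 and 3 counts.

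For the kinase pathway that Impact restrains, 4 of 10 genes passed: Eif2s1 (87.7 CPM per kb ± 17.5), the transcription factor Atf4 (60.7 ± 1.70), Ppp1r15b (25.4 ± 11.7) and Gcn1l1, the activator of Gcn2 (11.0 ± 4.53, SD, n = 2), while the kinase gene itself, Eif2ak4, had 3 and 0 counts. Of the cell cycle list around Cdkn1c 5 of 11 passed, and its relatives Cdkn1b and Cdkn1a stood at 147 ± 26.6 and 114 ± 30.0 CPM per kb (SD, n = 2), against 74.0 ± 17.0 for Cdkn1c. Of the Notch pathway 3 of 14 passed, the receptors Notch1, Notch2 and Notch3 at 9.57, 7.68 and 5.82 CPM per kb. Of the genes derived from retroviral gag sequences 5 of 12 in the table passed; Cxx1b and Cxx1a, near-identical copies whose counts are uncertain, stood at 674 ± 66.8 and 651 ± 145, and Rtl1 had 1 and 1 counts. The calcium pump Atp2a2 had 237 and 60 counts, while 0 of 3 Peg3 partners and 0 of 2 Plagl1 relatives passed.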

How the data were processed

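RiboLace footprints of 25 to 35 nucleotides from 2 libraries of P5 brain were analysed. The authors deposited raw footprint counts per transcript for 109463 transcripts; per the submitters' processing notes, Trimmomatic 0.36, Bowtie2 2.2.6, SAMtools and GRCm38.p4 were used, and the counting tool and annotation release are not given in the sources used here. Count columns were matched to samples by the replicate number and the words control and RiboLace. CPM used edgeR 4.0.16 TMM factors (1.07 and 0.931) over genes past a filter (mean count of 10 or more); log2 ratios used log2(CPM + 1), with counting SEs. The binomial p-values cover counting error only and leave out any spread between animals or preparations. Binomial tests were called at an adjusted p of 0.05 and were tested on simulated data. Those data held counting error only, the spread that the test assumes, so they cannot show how it performs under a wider spread. Without molecular identifiers, PCR copies cannot be separated from molecules, so intervals cover counting error only. Gene coordinates and promoters are from RefSeq (GRCm38.p6), and all 10 identifiers matched the name table. Named genes were the 10 genes, every called gene of a fixed list, list genes of highest coding density (up to 5) or at 0, and the level neighbours of the 3 highest genes. Gnal, Adcy1, Adcy2, Adcy5, Insr, Igf1r, Grb7, Grb14, Eif2ak4, Rtl1 and the domain neighbours fall outside that rule and were chosen after their values were seen. The members and lists were chosen with earlier results of these data known. Alternatives covered scaling (library totals, DESeq2 1.42.0 size factors, coding genes alone), the isoform that stands for a gene, filters, pseudocount, test and single libraries.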

Additional observations from a re-analysis of the deposited data

How the results depend on the processing

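With 2 libraries of 1 group, all comparisons are between libraries, and depth limits genes under about 50 counts in sum to changes of several fold. No paired analysis was possible because only 1 group exists. Whole transcript length as divisor, the share among coding genes, the minimum in each library and the values of Snhg14 were alternatives added after seeing the data. Where no cause is given, the cause was not tested.

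The number of the 10 genes past the filter, 8, became 4 under a filter at a mean of 50, 4 with 10 or more counts in each library, and 4 to 9 on single libraries; that of other imprinted genes, 18, became 34 without a filter, 3 under the filter at 50, and 12 to 21 on single libraries. Summing isoforms, which can count a fragment more than once, called 1 of the 10 genes (Nnat, log2 ratio -0.33, adjusted exact binomial p = 0.00428), 2 other imprinted genes and 605 genes in all, against 225, with 63.3% of calls higher in replicate 2 against 96.4%. All calls numbered 75 under the filter at 50, where 764 genes were tested, and 131 with the preset coefficient of variation. The mean share of the 10 genes, 0.256%, became 0.539% with isoforms summed, 0.215% on the longest coding isoforms and 0.330% of coding counts, and 0.230% to 0.281% on single libraries. With library totals, the median log2 ratio over tested genes went from 0.0041 to -0.20.

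Of the recomputed log2 ratios of the 10 genes and Snhg14, 68 kept their direction and side of the threshold, 1 (Nnat, above) passed it, 3 (all Snhg14) lost it and 6 changed sign, of which none was called. Peg3, at -0.012, became 0.0067 with TMM over coding genes and 0.11 with isoforms summed; Ndn, at 0.12, became -0.088 with library totals; Dlk1, at 0.53, became -0.21 with isoforms summed. On the longest coding isoforms Peg10, at -0.27, became 0.023 and Plagl1, at -0.58, became 0.30.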
